A study of Mus musculus with 22 samples.

Results

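The 8 genes described here are made in male germ cells: Prm1 and Prm2 (protamines), Tnp1 and Tnp2 (transition proteins), Odf1 and Smcp (structural proteins of the sperm tail and midpiece), and Ldhc and Pgk2 (glycolytic enzymes of spermatocytes, spermatids and sperm). They were found as the features whose annotated symbol matched these names, 8 of 19337 measured genes, with 1 feature each. They had been chosen on measured values of these same arrays, namely high log2 values in some epididymal fat samples. Their levels in epididymal fat and their differences from inguinal fat are therefore given as a description, with no test.

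Gene expression was measured with 22 whole-transcript arrays of white fat from male C57BL/6J bone marrow chimeras, in which the marrow was given 6 weeks to reconstitute before 14 weeks on a diet whose fat supplied 60% of the calories. Epididymal fat (epiWAT), the pad attached to the epididymis, had 4 arrays with wild-type (WT) marrow, 4 with Gipr-/- marrow and 4 with Gipr-/-S100a9-/- marrow, called double knockout here. Inguinal subcutaneous fat (ingWAT) had 4, 3 and 3. The first 2 kinds of marrow went into WT recipients; the host of the double-knockout marrow is not stated in the labels. Gipr encodes the receptor of the gut hormone GIP, and S100a9 a calcium-binding alarmin subunit of neutrophils and monocytes. The deletions lie in the transplanted marrow cells, so the fat, the epididymis and the testis of a recipient belong to the host. Arrays are numbered within a group only to name them. Values are taken as log2 of the signal and run from 1.92 to 19.9, array medians lay between 6.11 and 6.54, and a feature's level is compared only across arrays. In whole fat, fewer cells of a type and less RNA per cell cannot be told apart. The adipocyte hormone gene Adipoq lay between 18.0 and 19.4 in the epiWAT arrays.

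In a developing spermatid, histones are first replaced by transition proteins and these by protamines, small arginine-rich proteins that pack the DNA of the sperm head. The messenger RNAs of protamines and of many tail proteins are made early in spermatids and are stored before they are translated. Mature sperm make almost no new RNA, pass from the testis into the epididymis and are kept there. The epididymis itself is a tube of secretory epithelium whose segments express different genes; Gpx5, a secreted glutathione peroxidase, is a product of its first part, the caput.

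Prm1, Prm2 and Tnp2 lie next to one another on chromosome 16, with Prm3 between Prm2 and Tnp2, while Tnp1 lies on chromosome 1. The 100 bases before the start of these 4 nuclear protein genes are shown because they carry the motif letters searched for and let the clustered genes be set beside Tnp1. Sequences are from RefSeq (GRCm38.p6, minus strand, 5′ to 3′). Capitals mark TATAA or, in Prm1 and Tnp1, TGANGTCA, letters close to the cAMP response element that the spermatid activator CREM binds; both were searched on both strands.

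Prm1, chr16:10796824-10796923: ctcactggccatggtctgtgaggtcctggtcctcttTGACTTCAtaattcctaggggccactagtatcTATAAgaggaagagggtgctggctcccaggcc

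Prm2, chr16:10792106-10792205: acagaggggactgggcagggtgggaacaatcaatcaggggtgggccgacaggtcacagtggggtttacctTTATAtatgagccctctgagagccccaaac

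Tnp1, chr1:73015900-73015999: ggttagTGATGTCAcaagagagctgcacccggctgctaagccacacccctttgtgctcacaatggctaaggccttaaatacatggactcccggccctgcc

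Tnp2, chr16:10788656-10788755: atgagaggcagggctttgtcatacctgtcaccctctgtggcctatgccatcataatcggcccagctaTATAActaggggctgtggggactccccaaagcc

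Prm1 held TGACTTCA starting 64 bases before its start, which matches TGANGTCA on the opposite strand. Tnp1 held TGATGTCA 94 bases before its start, on the strand shown. Among the 250 bases before the start of 32851 mouse promoters, 7.49% held TGANGTCA and 22.8% held TATAA. The TATAA match began 32 bases before the start in Prm1, 30 in Prm2 and 33 in Tnp2, and the window of Tnp1 had no such match. In Prm2 the strand shown reads TTATA, so TATAA lies on the opposite strand. Of the 8 genes, 7 had a promoter entry, with 8 windows in all. A match is a description of letters only, and no array value was measured at these promoters.

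The germ cell genes were high in some epiWAT arrays and low in all ingWAT arrays. Among the 12 epiWAT arrays, the same 6 held the 6 highest values of each of the 8 genes: Gipr-/- 1, WT 2, WT 1, double knockout 1, double knockout 3 and Gipr-/- 4. Each kind of marrow thus had 2 high and 2 low arrays, and the array of highest value was Gipr-/- 1 for 8 of 8 genes. The mean of the 8 genes, each centred on its own mean over the 22 arrays, was 8.01 in Gipr-/- 1, 3.65 in WT 2, 2.56 in double knockout 1, 2.23 in WT 1, 1.77 in double knockout 3 and 1.41 in Gipr-/- 4. It lay between -1.4 and -0.68 in the other 6 epiWAT arrays. The SD of this mean within groups was 3.03 in epiWAT and 0.33 in ingWAT.

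**Figure D1:**
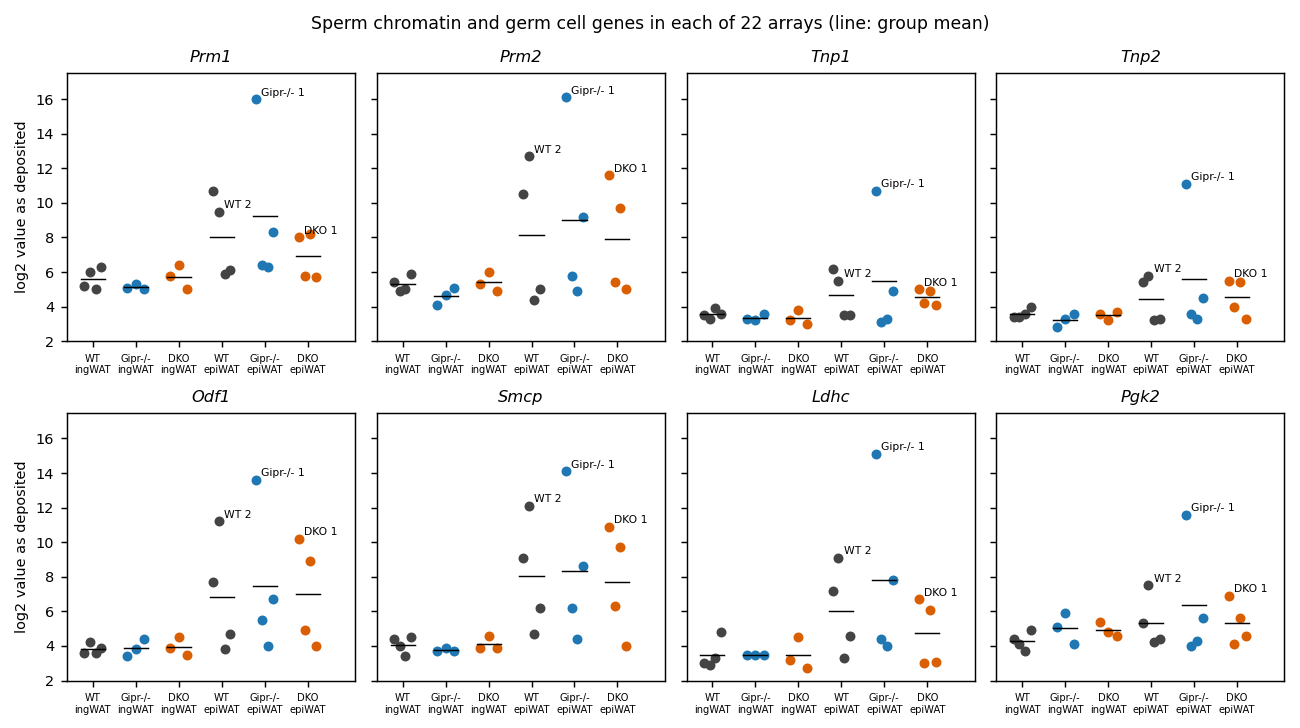
Value as deposited, taken as log2 (vertical axis), of each of the 8 germ cell genes in the 22 arrays. There is 1 point per array, by depot and kind of marrow (DKO, double knockout), and lines are group means. In epiWAT, Gipr-/- 1 is the highest point of every panel, at 16.0 for Prm1 and 16.1 for Prm2, while the ingWAT points of these genes reach 6.4 and 6.0.

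Of the protamines, Prm2 had epiWAT log2 values of 10.5, 12.7, 4.4 and 5.0 in WT arrays 1 to 4, 16.1, 5.8, 4.9 and 9.2 in the Gipr-/- arrays, and 11.6, 5.4, 9.7 and 5.0 in the double-knockout arrays. In ingWAT it ran from 4.1 to 6.0, with a median of 5.0. The 6 high epiWAT arrays all lay above the highest ingWAT array by at least 2 log2 units, and the 6 low ones lay inside the ingWAT range. Prm1 had 10.7, 9.5, 5.9 and 6.1 in WT arrays 1 to 4, 16.0, 6.4, 6.3 and 8.3 in the Gipr-/- arrays, and 8.0, 5.8, 8.2 and 5.7 in the double-knockout arrays, against 5.0 to 6.4 in ingWAT (median 5.3). For Prm1, WT 1 and not WT 2 was the second array, and double knockout 1 was the sixth. Prm3, the gene between Prm2 and Tnp2, did not share the pattern: it was 5.5 in Gipr-/- 1, 4.5 in WT 2 and 4.5 in double knockout 1, within a range of 4.5 to 5.7 over the epiWAT arrays. Socs1, a somatic cytokine signalling inhibitor beyond Tnp2, was 3.9 in Gipr-/- 1 and between 3.5 and 4.5 in epiWAT.

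The transition proteins stood apart mostly in Gipr-/- 1. Tnp1 had epiWAT log2 values of 6.2, 5.5, 3.5 and 3.5 in WT arrays 1 to 4, 10.7, 3.1, 3.3 and 4.9 in the Gipr-/- arrays, and 5.0, 4.2, 4.9 and 4.1 in the double-knockout arrays, against 3.0 to 3.9 in ingWAT (median 3.4). Tnp2 had 5.4, 5.8, 3.2 and 3.3 in WT arrays 1 to 4, 11.1, 3.6, 3.3 and 4.5 in the Gipr-/- arrays, and 5.5, 4.0, 5.4 and 3.3 in the double-knockout arrays, against 2.8 to 4.0 in ingWAT (median 3.5). At least 2 log2 units above the highest ingWAT array were 2 epiWAT arrays for Tnp1 and 1 for Tnp2. In Gipr-/- 1 Tnp1 stood 4.5 above the next array and Tnp2 5.3 above it.

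Of the structural genes, Smcp, which encodes a cysteine-rich protein of the mitochondrial sheath of the sperm midpiece, had epiWAT log2 values of 9.1, 12.1, 4.7 and 6.2 in WT arrays 1 to 4, 14.1, 6.2, 4.4 and 8.6 in the Gipr-/- arrays, and 10.9, 6.3, 9.7 and 4.0 in the double-knockout arrays. Its ingWAT values ran from 3.4 to 4.6 (median 3.9), so 10 of 12 epiWAT arrays lay above all of ingWAT. Odf1, a protein of the outer dense fibres that flank the sperm axoneme, had 7.7, 11.2, 3.8 and 4.7 in WT arrays 1 to 4, 13.6, 5.5, 4.0 and 6.7 in the Gipr-/- arrays, and 10.2, 4.9, 8.9 and 4.0 in the double-knockout arrays. In ingWAT it ran from 3.4 to 4.5 (median 3.9), below 9 of 12 epiWAT arrays.

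Of the metabolic genes, Ldhc, the germ cell form of lactate dehydrogenase, had epiWAT log2 values of 7.2, 9.1, 3.3 and 4.6 in WT arrays 1 to 4, 15.1, 4.4, 4.0 and 7.8 in the Gipr-/- arrays, and 6.7, 3.0, 6.1 and 3.1 in the double-knockout arrays, against 2.7 to 4.8 in ingWAT (median 3.4). Pgk2, an intronless phosphoglycerate kinase that takes over from X-linked Pgk1 in meiotic cells, had 5.3, 7.5, 4.2 and 4.4 in WT arrays 1 to 4, 11.6, 4.0, 4.3 and 5.6 in the Gipr-/- arrays, and 6.9, 4.1, 5.6 and 4.6 in the double-knockout arrays. Its ingWAT values ran from 3.7 to 5.9 (median 4.7), and only 3 epiWAT arrays lay above them. The somatic relatives did not follow as a set: Gipr-/- 1 was the highest epiWAT array for 0 of the 8 measured, and their mean there was -0.14 from ingWAT. Ldhb followed in part. It was 9.6 in Gipr-/- 1, 10.6 in double knockout 1 and 9.6 in double knockout 3, against at most 9.1 in ingWAT, but 8.2 in WT 2. Hspb6 was 14.1 in Gipr-/- 1 and 15.7 in Gipr-/- 2, within its ingWAT range of 11.3 to 15.8. Ldha, the neighbour of Ldhc on chromosome 7, was 15.6 in Gipr-/- 1 within an epiWAT range of 14.1 to 16.3, and Pgk1 was 10.9 there.

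The high arrays differed in which of the 8 genes were high. Gipr-/- 1 lay above WT 2 by 2.0 log2 units for Smcp, 2.4 for Odf1 and 3.3 for Prm2, but by 4.1 for Pgk2, 5.2 for Tnp1, 5.3 for Tnp2, 6.0 for Ldhc and 6.5 for Prm1. Against double knockout 1 the differences were 3.3 for Smcp, 3.4 for Odf1 and 4.4 for Prm2, and between 4.7 and 8.4 for the other 5 genes. Smcp, Odf1 and Prm2 thus had the smallest differences against both arrays. This order did not hold in full against WT 1 and double knockout 3. Against WT 1 the difference was 4.5 for Tnp1, 5.0 for Smcp, 5.4 for Prm1, 5.6 for Prm2 and 5.9 for Odf1. Against double knockout 3 it was 4.4 for Smcp and 4.7 for Odf1. For Prm2 it was 6.3 there, above Tnp2 at 5.7, Tnp1 at 5.8 and Pgk2 at 6.0. In double knockout 1 the excess over the highest ingWAT array was 6.3 for Smcp, 5.7 for Odf1 and 5.6 for Prm2, and between 1.0 and 1.8 for the other 5. With 1 array each, these profiles have no replicate check. Differences of genes near the lower end of the signal are compressed on arrays, and its part in these profiles was not tested.

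**Figure D2:**
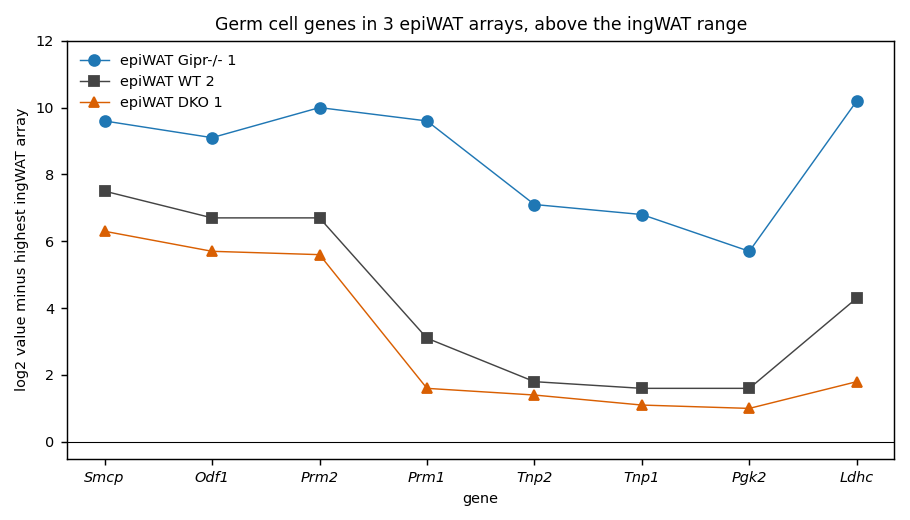
Excess of each germ cell gene (horizontal axis) over its highest ingWAT array, in log2 units, in epiWAT Gipr-/- 1, WT 2 and double knockout 1 (DKO 1); lines join points of 1 array. Smcp, Odf1 and Prm2 are 6.3, 5.7 and 5.6 above ingWAT in DKO 1, whereas Prm1, Tnp1, Tnp2, Pgk2 and Ldhc are at most 1.8 above it.

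Other germ cell genes were compared with the 8 through lists written from general knowledge, with the 8 left out of each. Earlier results of these data were known when the lists were written, so the counts are descriptions. The lists are not fully separate, as Ybx2 stands in both the meiosis and the chromatin remodelling list. Among the lists of other cell types used below, Cst12 and Rhox5 stand in both the Sertoli cell and the epididymis list. Pate4 stands in both the epididymis list and the vas deferens and accessory gland list. At least 2 log2 units above the highest ingWAT array in Gipr-/- 1 were 8 of the 8 genes, 33 of 43 late spermatid and sperm genes, 14 of 34 meiosis and spermatocyte genes and 6 of 19 genes of spermatid chromatin remodelling, against 4.42% of all 19337 genes. In WT 2 the counts were 5, 11, 2 and 0, against 2.46% of all genes. In double knockout 1 they were 3, 7, 0 and 0, against 3.05%. In double knockout 3 they were 3, 6, 0 and 0 (2.28% of all genes), in WT 1 6, 2, 0 and 0 (0.331%), and in Gipr-/- 4 4, 5, 0 and 0 (0.527%). Meiotic genes were thus past this gap in Gipr-/- 1 and WT 2 only. In the 6 other epiWAT arrays none of the 8 genes reached it, against 0.879% of all genes in WT 3, 0.259% in WT 4, 1.03% in Gipr-/- 2, 0.114% in Gipr-/- 3, 0.176% in double knockout 2 and 0.0672% in double knockout 4. Of the 3 germ cell lists, 2 late spermatid and sperm genes reached it there, both in WT 3. They were Nme5, at 8.9 in WT 3, 8.9 in double knockout 3 and 8.4 in Gipr-/- 1, and Spata18, at 7.7, 8.6 and 10.2. In WT 3 these 2 genes were thus high without the 8.

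Named late spermatid and sperm genes were high in Gipr-/- 1 and WT 2, as the 8 were. Gapdhs, the glyceraldehyde-3-phosphate dehydrogenase of sperm, was 13.4 in Gipr-/- 1 and 7.0 in double knockout 1, with an epiWAT median of 4.8 and 2.8 to 4.1 in ingWAT. Akap4, a scaffold of the fibrous sheath of the sperm tail, was 13.6 in Gipr-/- 1, 9.4 in WT 2 and 6.8 in double knockout 1, against a median of 5.5. Crisp2 was 14.8, 10.5 and 8.8 (median 6.6), Spem1 13.6, 8.7 and 7.9 (median 5.2), Gsg1 13.0, 9.1 and 8.1 (median 5.6), and Meig1 14.1, 9.7 and 6.7 (median 7.0). Each of these genes was highest in Gipr-/- 1, lower in WT 2 and lower again in double knockout 1.

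Meiotic genes stood out mainly in Gipr-/- 1. Sycp1, a protein of the synaptonemal complex that joins paired chromosomes, was 11.0 in Gipr-/- 1, 5.9 in WT 2 and 4.6 in double knockout 1, against 4.7 to 6.5 in ingWAT. Syce1, of the same complex, was 10.2, 5.9 and 4.5, and the germ cell helicase gene Ddx4 9.4, 4.6 and 3.6. Mael, a gene of the piRNA pathway, was 13.3, 8.4 and 6.1, Clgn, a chaperone of the endoplasmic reticulum, 11.2, 6.3 and 4.5, and Ybx2, an RNA-binding protein of germ cells, 12.7, 9.5 and 8.2. Among chromatin genes of spermatids, the histone genes H2bc1, H2ac1 and H2al2a were 12.5, 11.4 and 10.5 in Gipr-/- 1, and 5.7, 6.5 and 6.4 in WT 2. The bromodomain gene Brdt was 11.1 in Gipr-/- 1 and 6.3 in WT 2, and H2bl1 was 6.4 and 2.9.

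The lists of other reproductive cell types set the arrays further apart. The mean of a list, taken as the log2 difference from each gene's ingWAT mean, was 4.73 for late spermatid and sperm genes in Gipr-/- 1, 1.82 in WT 2 and between -0.16 and 0.96 in the other epiWAT arrays. For meiosis and spermatocyte genes it was 2.82 in Gipr-/- 1 and between -0.25 and 0.45 elsewhere. For spermatogonium genes it was -0.01 in Gipr-/- 1 and between -0.39 and -0.02 elsewhere. That list holds genes with high values in all arrays of both depots, such as Zbtb16, between 12.3 and 15.6. Leydig cell genes had a mean of 4.97 in Gipr-/- 1 and between 0.09 and 1.66 in the other arrays, and Sertoli cell genes 1.64 against 0.1 to 0.74. The epididymis epithelium mean was 6.79 in double knockout 1, 4.92 in WT 2, 3.89 in double knockout 3, 3.31 in Gipr-/- 1, and between 0.31 and 2.07 in the rest. The mean of vas deferens and accessory gland genes was 2.01 in WT 2 and between -0.41 and 0.12 elsewhere. The adipocyte mean was lowest in double knockout 1, at -1.76, and in Gipr-/- 1, at -1.09.

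**Figure D3:**
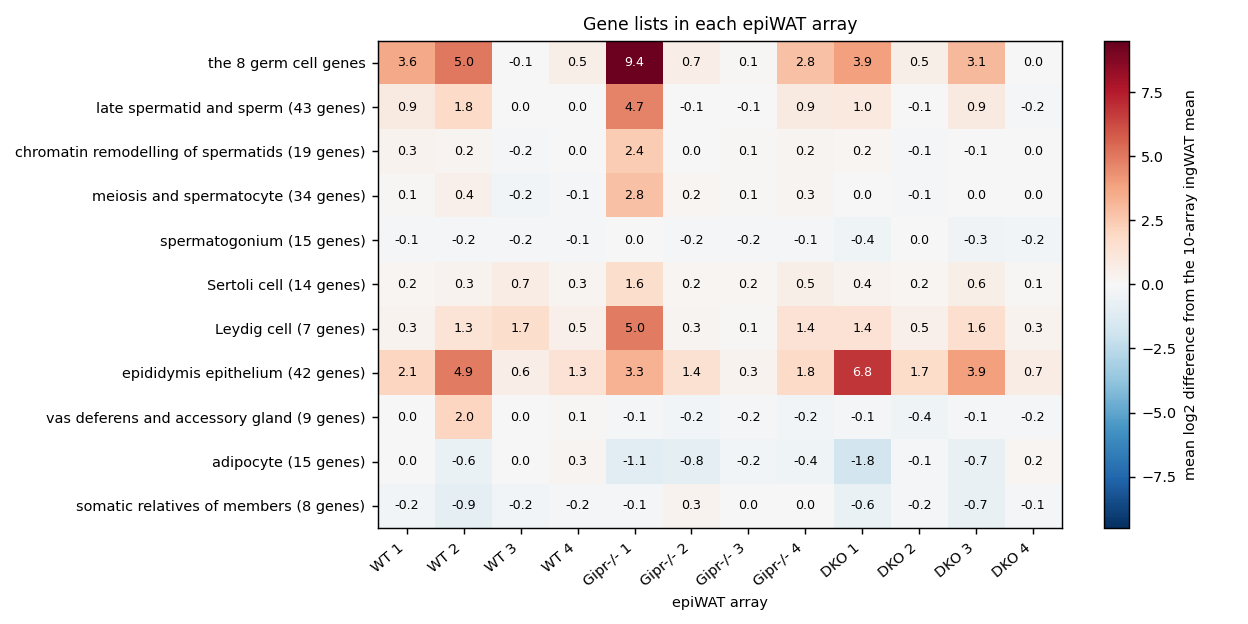
Mean log2 difference from the ingWAT mean of each gene, averaged over a list (rows, number of measured genes in brackets), in each of the 12 epiWAT arrays (columns; DKO, double knockout). Late spermatid, meiotic and Leydig cell genes are highest in Gipr-/- 1 (4.73, 2.82 and 4.97), and epididymis genes in DKO 1 (6.79).

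Single genes showed the same split. The Leydig cell enzyme genes Hsd3b6, Hsd3b1 and Hsd17b3, of testosterone synthesis, were 11.4, 10.7 and 9.1 in Gipr-/- 1, and 4.5, 3.7 and 4.0 in WT 2. Their second highest epiWAT array was WT 3, at 7.7, 6.8 and 5.3, above the highest ingWAT values of 6.0, 5.2 and 4.6. The germ cell gene mean of WT 3 was -1.4. Cst9, from the Sertoli cell list, was 10.2 in Gipr-/- 1 and 2.6 in WT 2. It had the largest gap of its list, and most of that list stayed lower. In Gipr-/- 1, 4 of the 14 Sertoli cell genes lay at least 2 log2 units above the highest ingWAT array, beside 4.42% of all genes. Not all of these were particular to Gipr-/- 1. Wt1 was between 4.9 and 6.1 in every epiWAT array, against at most 3.6 in ingWAT. Cldn11 was 8.3 in Gipr-/- 1, 8.1 in double knockout 1 and 7.6 in WT 4. Only 2 Sertoli cell genes lay at least 2 log2 units above every other epiWAT array. Cyp17a1, a steroid hydroxylase gene of the Leydig cell list, differed from these: it was 14.9 in WT 2, 14.4 in Gipr-/- 1, 14.5 in double knockout 3 and 14.2 in double knockout 1, against 2.8 to 4.1 in ingWAT. The seminal vesicle secretion genes Svs5 and Svs6 were 7.7 and 5.7 in WT 2, and 4.1 and 2.7 in Gipr-/- 1. Their part in the germ cell gene values was not tested.

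The highest epiWAT array was Gipr-/- 1 for 40 of 43 late spermatid and sperm genes, 27 of 34 meiosis genes, 13 of 19 chromatin remodelling genes, 6 of 7 Leydig cell genes, 8 of 14 Sertoli cell genes and 3 of 15 spermatogonium genes, against 11.0% of all genes. Double knockout 1 was the highest for 24 of 42 epididymis genes, against 11.7% of all genes, and WT 2 for 7 of 9 vas deferens and accessory gland genes, against 6.41%. Genes high in a single array were counted as those at least 2 log2 units above every other array of the depot. In Gipr-/- 1 these were 507 genes, 2.62% of all, and they included 8 of the 8 germ cell genes, 31 late spermatid, 13 meiosis, 6 chromatin remodelling, 4 Leydig cell and 2 Sertoli cell genes. In WT 2 they were 6 genes (0.031%), 4 of them from the vas deferens and accessory gland list, and in double knockout 1 they were 70 genes (0.362%), 13 of them from the epididymis list; neither held any of the 8. In the ingWAT arrays there were between 0 and 136, none of them among the 8 genes or the germ cell lists.

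**Figure D4:**
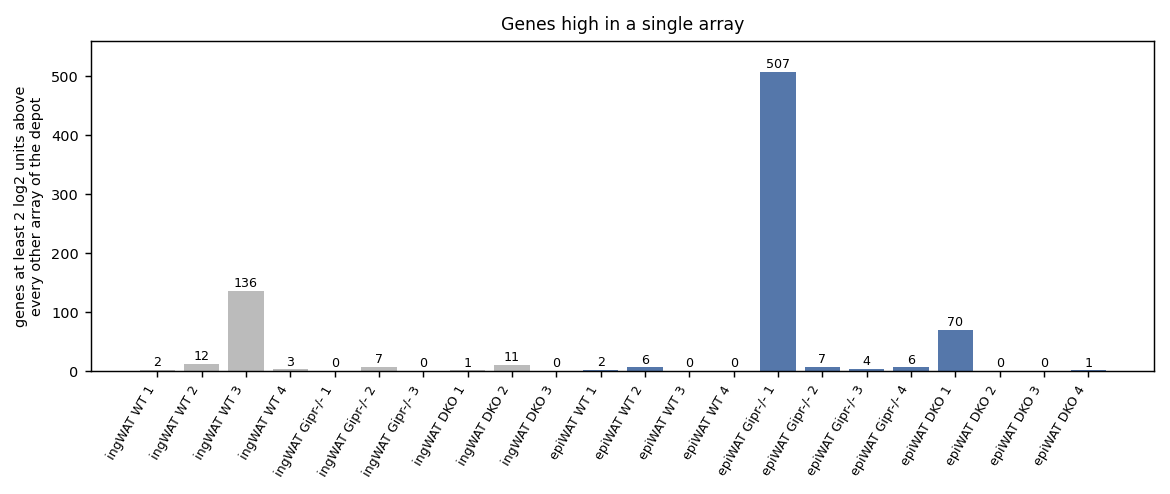
Number of genes (vertical axis, from 0) at least 2 log2 units above every other array of the same depot, for each of the 22 arrays (ingWAT in grey, epiWAT in blue; DKO, double knockout). Gipr-/- 1 in epiWAT has 507, the next epiWAT array, DKO 1, has 70, and the ingWAT arrays have 0 to 136.

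By this gap Ldhc was 4th of all 19337 genes, Prm1 9th, Tnp2 10th, Tnp1 34th, Pgk2 66th, Prm2 173rd, Odf1 369th and Smcp 501st. Smcp, at 2.0 log2 units, lay just inside the gap that defined the count. The 10 largest gaps outside the 8 genes were those of H2bc1 at 6.4, the Sertoli list gene Cst9 at 6.2, Gm3417 at 6.1, Tcp10c at 5.9, the lipid-binding protein gene Fabp9 at 5.5, Ube2d2b at 5.5, Pabpc6 at 5.4, Atp8b3 at 5.2, Adam32 at 5.1 and the germ granule gene Tdrd6 at 5.1.

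Genes were also ranked by how closely they followed the mean of the 8 over the 12 epiWAT arrays, as a description. The arrays share their RNA between genes, and Gipr-/- 1 weighs heavily, so r is also given without the 2 arrays farthest from the median, Gipr-/- 1 and WT 2. Crisp2, a cysteine-rich secretory protein of the testis, was the closest (r = 0.993, rho = 0.874 over 12 arrays, and r = 0.976 over 10). Spz1, a transcription factor of germ cells, followed at 0.989 (0.977 over 10), Dbil5 at 0.988 (0.983) and Cabs1 at 0.987 (0.967). Lelp1 had r = 0.986 and the highest rho of these, 0.993, with r = 0.995 over 10 arrays. The rest of the 20 closest were Spata33, Akap4, Atp8b3, Ubqlnl, Oaz3, Spata3, Spem1, Gm3417, Gapdhs, Fhl4, BC061195, D11Wsu47e, Tcp11, 4921507P07Rik and Gsg1, with r between 0.975 and 0.986 over 12 arrays and between 0.907 and 0.976 over 10.

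An r of at least 0.9 was reached by 169 of 19329 other genes, or 0.874%. They included 22 of 43 late spermatid and sperm genes, 4 of 34 meiosis genes and 2 of 19 chromatin remodelling genes, and 0 genes of the epididymis, Leydig cell, Sertoli cell, spermatogonium, vas deferens, adipocyte and somatic relative lists. Each of the 8 genes had r between 0.93 and 0.968 with the mean of the other 7, and between 0.837 and 0.993 over the 10 arrays. Over the 10 ingWAT arrays this r ran from 0.008 for Pgk2 to 0.811 for Prm1. The closest genes there were Colec11 (0.958, and 0.897 over 8 arrays), Ttll9, Kctd16, Vmn2r120, Ccdc39, Svs5, Sfta2, Olfr1471, Olfr597 and Acaa1a, none of which was among the 20 closest in epiWAT.

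Gpx5 did not follow the germ cell genes from array to array. Its epiWAT log2 values were 9.6, 4.3, 3.7 and 3.4 in WT arrays 1 to 4, 3.8, 4.0, 4.3 and 4.2 in the Gipr-/- arrays, and 18.9, 11.5, 6.2 and 6.3 in the double-knockout arrays, against 3.9 to 6.1 in ingWAT (median 4.4). The arrays highest for the 8 genes, Gipr-/- 1 and WT 2, were inside the ingWAT range or just below it for Gpx5. Conversely, double knockout 2 was the second array for Gpx5 and had a germ cell gene mean of -0.82. Its r with the mean of the 8 was 0.067 over the 12 arrays and 0.57 over the 10 without Gipr-/- 1 and WT 2.

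Other epididymal genes were distributed differently from Gpx5. Lcn5, a retinoic acid-binding lipocalin of the epididymis, was 19.3 in double knockout 1, 16.5 in WT 2, 15.1 in WT 1 and 13.5 in double knockout 2, and 5.7 in Gipr-/- 1. Rnase9, an epididymal member of the ribonuclease A family, was 18.2 in double knockout 1, 14.8 in WT 2, 13.3 in double knockout 3 and 10.5 in Gipr-/- 1. Spink11, from a protease inhibitor family, was 17.7, 14.8 and 10.5 in double knockout 1, WT 2 and Gipr-/- 1. Defb30, a defensin gene, was 17.9, 13.8 and 7.9 in these 3 arrays, and Rnase13 was 13.8, 6.9 and 2.7. All 5, named for the gap of their highest array, were highest in double knockout 1, and Gipr-/- 1 was high for some and low for others. In Gipr-/- 1, 19 of the 42 epididymis genes lay at least 2 log2 units above the highest ingWAT array, beside 4.42% of all genes. The count was 32 in double knockout 1 (3.05% of all genes), 25 in WT 2 (2.46%) and 21 in double knockout 3 (2.28%).

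The relation was fitted across arrays with the kind of marrow as a term. The epiWAT values that enter these fits are those on which the 8 genes were chosen, so the slopes are descriptions. Per log2 unit of Gpx5, the 8 genes had slopes between 0.08 for Tnp1 and 0.36 for Prm2 (SE 0.17 and 0.31), with a median of 0.16 beside 0.0 for all genes tested. All 8 genes were above the filter on low values, but only 7 were when Gipr-/- 1 was left out. By limma, 0 of 14501 genes passed the adjusted threshold of 0.05, a background of 0%; 780 genes had an unadjusted p below it. The interval for Prm2 ran from -0.32 to 1.04. Without double knockout 1 the slope of Odf1 was 0, that of Pgk2 -0.1 and the median of the 8 slopes 0.09, and without double knockout 3 that median was 0.28. The positive slopes with the smallest p over all genes were those of Rnase13 (0.73), Alpl (0.36), Pla2g7 (0.31), Muc5b (0.61) and Defb21 (0.78), and the negative ones were those of Crocc (-0.14), Spag8 (-0.1), Plac9a (-0.1), Spag1 (-0.1) and Yaf2 (-0.12).

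With the mean of the 42 epididymis genes in place of Gpx5, the slopes were larger. Per log2 unit of that mean they were 1.74 for Prm2 (SE 0.33), 1.55 for Smcp (SE 0.25), 1.54 for Odf1 (SE 0.25), 1.25 for Ldhc (SE 0.35), 0.91 for Prm1 (SE 0.36), 0.81 for Pgk2 (SE 0.25), 0.72 for Tnp2 (SE 0.27) and 0.55 for Tnp1 (SE 0.28). Over all genes limma called 3494 of 14469 in either direction, or 24.1%. No calls are read for the 8, whose choice rests on these values. The median slope was 1.08 for the 8 genes and -0.03 for all genes tested; it was 0.45 for 33 late spermatid genes, 0.21 for 21 meiosis genes and -0.29 for 15 adipocyte genes. Single arrays moved the smaller slopes: without Gipr-/- 1 that of Prm1 was 0.58 and that of Tnp1 0.28, and Tnp2 fell below the filter on low values. Without double knockout 1 the slopes were 1.4 for Prm1, 1.09 for Tnp2 and 0.9 for Tnp1, and the genes called over all numbered 1448.

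**Figure D5:**
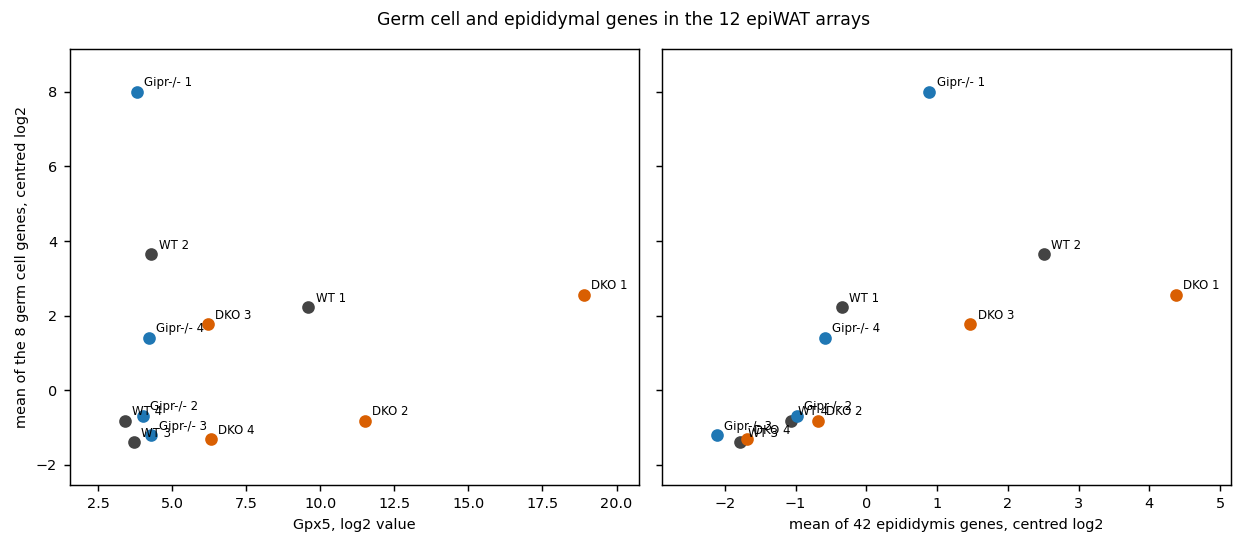
Mean of the 8 germ cell genes (vertical axis, log2, each gene centred over 22 arrays) against Gpx5 (left, log2 value) and against the mean of 42 epididymis genes (right, centred over the 12 arrays), 1 labelled point per epiWAT array (DKO, double knockout). Gipr-/- 1 lies at 8.01 with Gpx5 at 3.8, DKO 1 at 2.56 with Gpx5 at 18.9; on the right Gipr-/- 1 lies above the other arrays.

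Between kinds of marrow in epiWAT the spread within groups was larger than the differences. The mean of Smcp was 8.03 ± 3.29 in the WT arrays, 8.35 ± 4.24 in the Gipr-/- arrays and 7.72 ± 3.15 in the double-knockout arrays (SD, n = 4 each). That of Ldhc was 6.07 ± 2.61, 7.82 ± 5.13 and 4.73 ± 1.94 in the same order (SD, n = 4 each). The groups overlapped for both genes. For Gipr-/- minus WT the median difference of the 8 genes was 0.93, beside -0.02 for all genes, and 8 of 8 were positive; without Gipr-/- 1 the median of the plain differences of means turned to -0.99, and 0 of 8 were positive. Leaving out any other epiWAT array, the median lay between 0.47 (without WT 3) and 1.87 (without Gipr-/- 2). For double knockout minus Gipr-/- the median was -1.06, beside 0.0 for all genes, and it turned to 0.74 without Gipr-/- 1; it lay between -1.91 (without Gipr-/- 3) and -0.76 with any other array left out, and was -0.33 with array weights. For double knockout minus WT it was -0.17, beside -0.02, and its sign was not stable. It was 0.62 without WT 2, 0.21 without WT 1, 0.23 without double knockout 2 and 0.36 without double knockout 4. It was -1.16 without WT 3 or double knockout 1, -0.76 without WT 4 and -0.66 without double knockout 3, and it was 0.37 with array weights. In each of these comparisons limma called 0 of 14502 genes, a background of 0%, with 1052, 1555 and 444 genes at an unadjusted p under 0.05.

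EpiWAT minus ingWAT, the contrast in which the 8 genes were chosen, is given for size alone. The difference was 4.04 for Smcp (SE 1.0), 3.23 for Prm2 (SE 1.18), 3.2 for Odf1 (SE 0.99), 2.7 for Ldhc (SE 1.02), 2.57 for Prm1 (SE 0.9), 1.49 for Tnp1 (SE 0.63), 1.38 for Tnp2 (SE 0.67) and 0.96 for Pgk2 (SE 0.67). The median was 2.63, beside 0.02 for all genes. Without Gipr-/- 1 the plain difference of depot means was 0.96 for Tnp1, 0.83 for Tnp2 and 0.46 for Pgk2, where it had been 1.49, 1.4 and 1.0 with all arrays. Over all genes limma called 12.4% of 14502 in this contrast. No calls are given for the 8, which were chosen on these values; for some of them only the epiWAT arrays bring the mean above the filter on low values.

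In ingWAT, which had no part in the choice except as the low side, only Prm1, Prm2 and Pgk2 were above the filter on low values, and 0 of these 3 passed the test between kinds of marrow. The mean of Prm2 was 5.31 ± 0.46 in the WT arrays (SD, n = 4), 4.61 ± 0.51 in the Gipr-/- arrays (n = 3) and 5.4 ± 0.59 in the double-knockout arrays (n = 3). For Gipr-/- minus WT the differences were -0.7 for Prm2 (SE 0.38), -0.49 for Prm1 (SE 0.4) and 0.78 for Pgk2 (SE 0.42), with limma adjusted p between 0.416 and 0.626, beside 0.234% of 14502 genes called. For double knockout minus Gipr-/- they were 0.79, 0.61 and -0.12, with adjusted p between 0.323 and 0.926, beside 3.48%. For double knockout minus WT they were 0.09, 0.12 and 0.66, with adjusted p between 0.554 and 0.949. In that comparison 0 of 14502 genes were called, 0%, with 1958 at an unadjusted p under 0.05. The interval of Prm2 for Gipr-/- minus WT ran from -1.52 to 0.12, so differences within it could not be resolved with these arrays.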

How the data were processed

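The authors deposited a table of log2 values for 21793 features on 22 arrays; Partek 6.6 is named in the submitters' processing notes, without a role, and neither the normalization nor the log base is given in the sources used here. The platform annotation named 1 gene for 19341 features and none for 2452; of 2 features for a gene the one with the higher mean was kept, which left 19337 genes. Groups came from the labels. Whether arrays come from different mice is not said there, so a p-value covers the spread among arrays, which may be technical. The 8 genes and the lists were chosen with earlier results of these data known.

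Contrasts and slopes were fitted with limma 3.58.1 in R 4.3.3 (lmFit, eBayes with a trend) within each depot, or over all arrays between depots, without the 25% of genes of lowest mean; tests were two-sided, with Benjamini-Hochberg adjustment over all genes. The fits were tested on simulated data. Arrays carry no read depth, and their number limits the precision. Genes named are the 8, Gpx5, and up to 6 per list by the gap of the highest epiWAT array over the median (a selection of which is printed). Somatic relatives are named, as are the 20 and 10 genes closest to the mean of the 8. So are the 5 largest slopes by p in each direction, and the 10 largest gaps of the array with the highest mean. Prm3, Socs1, Adipoq, Rnase13, Spink8, Adam7, Wfdc15b, Wt1, Zbtb16, Rhox5, Nme5 and Spata18 were named beside them. Alternatives were another normalization, no filter, no trend, array weights, 1 fit of all arrays, other covariates and each array left out; the slope on the epididymis mean without each array was added after the data were seen.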

Additional observations from a re-analysis of the deposited data

Results flagged for a closer look

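In 40 groups of 4 arrays, the array farthest from the rest was set against Dixon's criterion, and 2 groups met it. The groups include those of the germ cell genes, which were chosen for high epiWAT values and rise together in epiWAT. The chance rate of about 1 in 20 holds for separate, unselected groups, so it cannot be set against this count. Tnp2 was 11.1 in epiWAT Gipr-/- 1, and the nearest array of that group was at 4.5. As Tnp2 was chosen for high epiWAT values, its value is a description. Gpx5 was 9.6 in epiWAT WT 1, with the nearest at 4.3. The other 7 germ cell genes were also highest in Gipr-/- 1, without meeting the criterion.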

How the results depend on the processing

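Counts of called genes in ingWAT depended on single arrays and on the fit. For Gipr-/- minus WT the count of 34 was 1 without the trend, 9 after quantile normalization, 401 with array weights and 97 in 1 fit of all 22 arrays; it ran from 0 to 274 with 1 array left out. For double knockout minus Gipr-/- the count of 505 was 1797 with array weights and from 49 to 1382 with 1 array left out. For double knockout minus WT the count of 0 was 4 after quantile normalization, 555 with array weights, 133 in 1 fit of all arrays and 0 to 620 with 1 array left out. In epiWAT, Gipr-/- minus WT called 26 genes with array weights and 0 to 1 with 1 array left out, and double knockout minus Gipr-/- called 1 in 1 fit of all arrays. The slope on Gpx5 called 3494 genes with the epididymis mean as covariate, 10 without a marrow term and 0 to 11 with 1 array left out; without a marrow term the slope was -0.03 for Prm1 and -0.08 for Ldhc, and without double knockout 1 it was 0 for Odf1 and -0.1 for Pgk2 (ranges with 1 array left out 0 to 0.44 and -0.1 to 0.14). The slope on the epididymis mean called between 1448 and 3671 genes with 1 array left out. Genes high in Gipr-/- 1 alone numbered 922 with a gap of 1 and 243 with a gap of 3. With array weights the median difference of the 8 genes in epiWAT was 0.37 for double knockout minus WT (-0.17 without weights) and -0.33 for double knockout minus Gipr-/- (-1.06). Where no alternative's construction shows it, the cause was not tested. No paired analysis was possible because the labels carry no replicate numbers shared between groups.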
